A study of Mus musculus with 8 samples.

Results

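Ligands, antagonists, receptors and responsive genes of the BMP and TGF-beta pathways were examined in sacral neural crest cells that lack normal Sox10 function. The 10 genes were chosen by symbol: the ligand genes Bmp4, Bmp6, Tgfb2 and Tgfb3, the antagonist genes Nog and Chrd, the receptor genes Bmpr1a and Bmpr2, and the responsive genes Id4 and Tgfbi. Each was represented by 1 probe set among the 6855 genes tested. The cells came from mouse embryos with 2 copies of Dom, a frameshift allele of the neural crest transcription factor gene Sox10 (Dom/Dom, 4 arrays), and from wild-type embryos (4 arrays), numbered as replicates 1 to 4 in each genotype. In both genotypes the neural tube below somite 24 was dissected at embryonic day 9.5 and cultured in medium with 10% serum, and RNA was taken after 24 hours from the cells that had left the explant. The labels give no strain and do not say whether replicates came from separate embryos, so the spread behind each p-value is that between samples and may in part be technical. Such a culture holds every cell type that migrated out, and fewer cells of a type cannot be told apart from less RNA per cell.

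BMPs and TGF-betas are secreted dimers that bring type I and type II serine/threonine kinase receptors together, and these receptors phosphorylate Smad proteins that enter the nucleus with Smad4. Noggin and chordin bind BMPs outside the cell and keep them from their receptors. In the dorsal neural tube, BMP signalling is known for its part in the induction and departure of the neural crest, and in the crest itself TGF-beta is known to favour a smooth muscle fate while BMP favours autonomic neurons. Serum also brings ligands of this family into a culture, in both genotypes alike.

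Tgfbi, which encodes a secreted matrix protein named for its induction by TGF-beta, was the member with the largest difference between genotypes. It was 1.45-fold higher in Dom/Dom cultures and was higher in each of the 4 pairs of same-numbered arrays, but it passed the threshold only when the replicate number was part of the model. The ligand, antagonist and receptor genes did not pass in either model. For the receptors Bmpr1a and Bmpr2, the antagonist Chrd and the ligand Bmp4, the 95% interval of the fold difference lay within 0.843 and 1.23. For all 10 members, Tgfbi included, the range over the 4 arrays of each genotype was wider than the difference between genotypes.

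Levels are log2 values after RMA, which puts arrays on a common scale and combines a probe set's probes, so levels of different genes are not compared with each other. Each difference is the log2 level in Dom/Dom less that in wild type, from a limma fit over all 6855 genes, and a gene was called at a Benjamini-Hochberg adjusted p below 0.05. Sox10 itself stood at 9.98, 10.94, 10.52 and 10.55 in Dom/Dom replicates 1 to 4, against 11.67, 11.46, 11.89 and 11.75 in wild-type replicates 1 to 4 (difference -1.20, SE 0.18, limma adjusted p = 0.0168). Dom is a frameshift and leaves a transcript, so Sox10 mRNA is no check of the genotype labels. Of 11 measured neural crest markers, 0 were near background, which was set at the 90th percentile of 213 olfactory receptor genes (a level of 7.93). All 10 members lay above that level too, with Chrd the nearest to it at a mean of 8.46. The highest mean of an olfactory receptor gene was 9.68, above that of Chrd. Lying above the level therefore does not by itself show expression.

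Without the replicate number, 0 of the 10 members were called in the limma fit, where 0.481% of all genes were called, and 1 of 10 had an unadjusted p below 0.05, where 6.11% of all genes did. With the replicate number as a block, 1 of 10 was called, Tgfbi, where 1.5% of all genes were called and 0.452% of all genes were called as higher in Dom/Dom. The members and gene lists were chosen with earlier results of these data known, so counts set beside such shares are no test. The median difference of the members was 0.022 and that of all genes -0.00094. The groups overlapped for all 10 members, while they did not overlap for 3.78% of all genes. Dom/Dom was higher in 4 of 4 same-numbered pairs for 2 members, Bmp4 and Tgfbi, where 10.4% of all genes were, and lower in 4 of 4 pairs for 0 members, where 10.7% of all genes were.

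**Figure D1:**
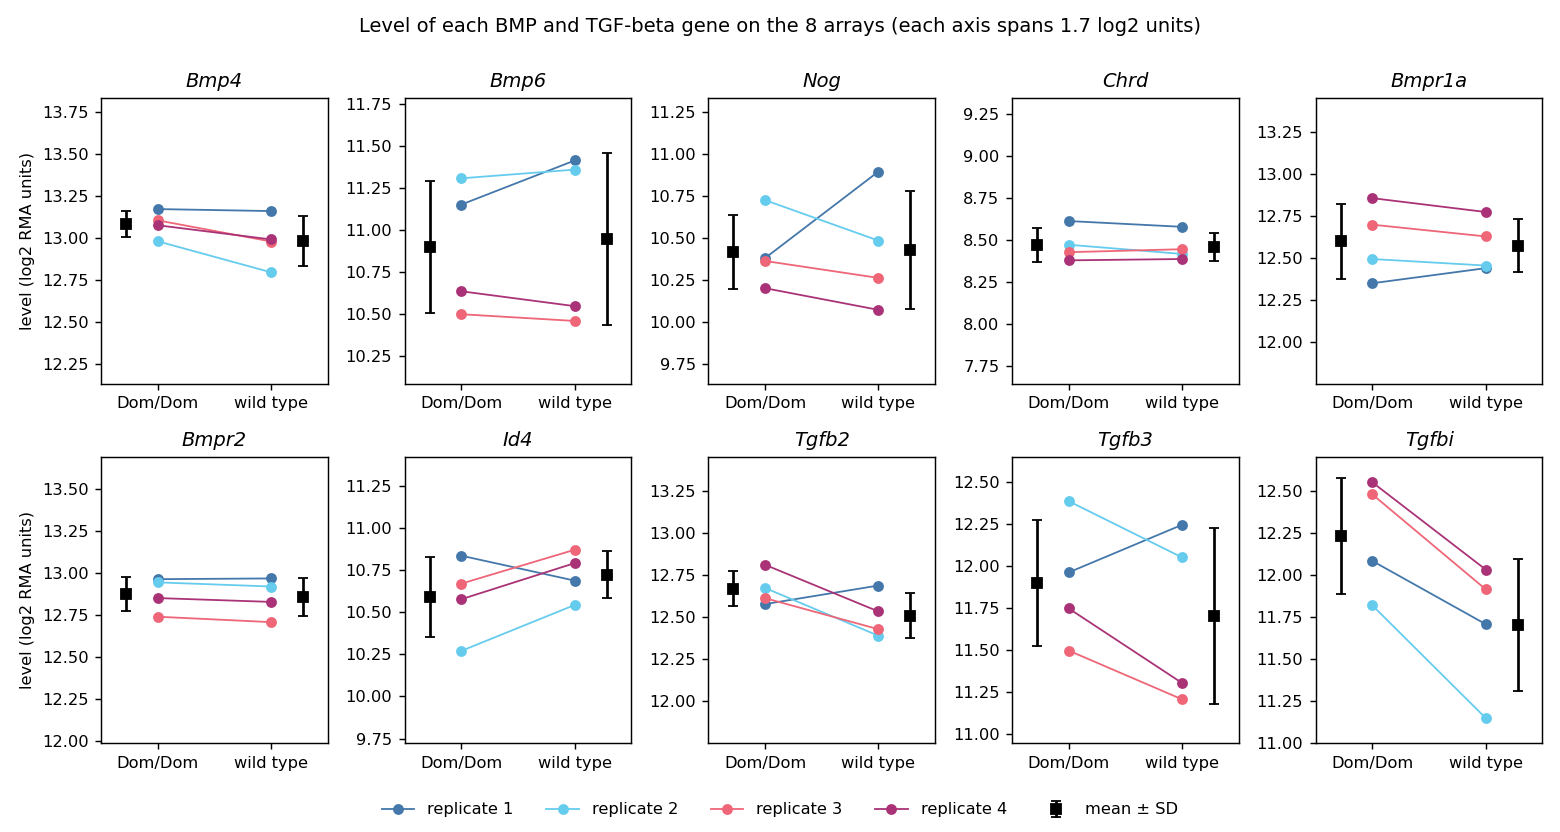
Level of each of the 10 genes (log2 RMA units) in Dom/Dom cultures on the left and wild-type cultures on the right of each panel; coloured points are single arrays, lines join arrays of the same replicate number, and black squares with bars give the mean ± SD of 4 arrays. Every line for Tgfbi is higher at its Dom/Dom end, while Bmp6 splits into replicates 1 and 2 above and replicates 3 and 4 below in both genotypes.

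Among the BMP ligands, Bmp4 encodes the BMP of the dorsal neural tube and overlying ectoderm that acts in crest induction. Its level was 13.17, 12.98, 13.10 and 13.07 in Dom/Dom replicates 1 to 4, against 13.16, 12.79, 12.98 and 12.99 in wild-type replicates 1 to 4. Dom/Dom was higher in every pair, though by as little as 0.012 in pair 1 and by no more than 0.18 in pair 2, and the groups overlapped. The fitted difference was 0.10 (SE 0.091, 95% interval -0.10 to 0.30, limma adjusted p = 1.00; 0.437 with the replicate block).

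Bmp6, a BMP of the same ligand family as BMP5 and BMP7, stood at 11.15, 11.31, 10.50 and 10.63 in Dom/Dom replicates 1 to 4. In wild-type replicates 1 to 4 it stood at 11.41, 11.36, 10.46 and 10.55. Replicates 1 and 2 were high and replicates 3 and 4 low in both genotypes, and this spread made the unblocked standard error of 0.25 larger than that of most members. Once the replicate number was in the model the standard error was 0.068, which is 3.70 times smaller. The difference was -0.046, with a 95% interval of -0.61 to 0.51 without the block and -0.21 to 0.12 with it (limma adjusted p = 1.00 and 0.814). Its direction reversed, still without a call, when arrays were weighted or when Dom/Dom replicate 3 or 4 or wild-type replicate 1 or 2 was left out.

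Among the TGF-beta ligands, Tgfb2, whose product acts in cushion formation of the heart and in crest derivatives, had levels of 12.58, 12.67, 12.61 and 12.81 in Dom/Dom replicates 1 to 4, against 12.69, 12.39, 12.43 and 12.53 in wild-type replicates 1 to 4. Wild-type replicate 1 was the only wild-type array above the lowest Dom/Dom array. The difference was 0.16 (SE 0.091, 95% interval -0.043 to 0.36, limma adjusted p = 1.00; 0.418 with the replicate block).

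Tgfb3, which encodes the TGF-beta needed for palate fusion, stood at 11.96, 12.39, 11.50 and 11.75 in Dom/Dom replicates 1 to 4, against 12.25, 12.05, 11.21 and 11.30 in wild-type replicates 1 to 4. As for Bmp6, replicates 1 and 2 were the high ones in both genotypes. The difference was 0.20 (SE 0.25, 95% interval -0.36 to 0.76, limma adjusted p = 1.00; 0.520 with the replicate block). By pairs, Tgfb3 differed by -0.28 in pair 1 and by 0.33, 0.29 and 0.44 in pairs 2 to 4, and Tgfb2 by -0.11 in pair 1 and by 0.28, 0.18 and 0.28 in pairs 2 to 4. Pair 1 therefore ran opposite to the other 3 pairs for both genes. Leaving out replicate 1, a choice made after seeing the data, gave blocked differences of 0.25 for Tgfb2 (limma adjusted p = 0.0457) and 0.36 for Tgfb3 (0.0179), in a fit that called 6.93% of all genes. Leaving out replicate 2, 3 or 4 instead, 0 calls were made for either gene (limma adjusted p from 0.604 to 0.914).

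Noggin, the product of Nog, is a BMP antagonist of the notochord, somites and dorsal neural tube. Nog stood at 10.38, 10.72, 10.36 and 10.20 in Dom/Dom replicates 1 to 4, against 10.89, 10.48, 10.26 and 10.07 in wild-type replicates 1 to 4. Wild-type replicate 1 was the highest of the 8 arrays, and pair 1 differed by -0.51, against 0.24, 0.10 and 0.13 in pairs 2 to 4. The fitted difference of -0.011 (SE 0.17, 95% interval -0.39 to 0.37, limma adjusted p = 1.00; 0.979 with the replicate block) turned positive when any of several arrays was left out. Without replicate 1 the blocked difference was 0.16, and it did not pass (limma adjusted p = 0.172).

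Chordin, the antagonist that BMP1-type proteases cleave, is encoded by Chrd. Its level was 8.61, 8.47, 8.43 and 8.38 in Dom/Dom replicates 1 to 4, against 8.58, 8.42, 8.45 and 8.39 in wild-type replicates 1 to 4. The 8 arrays spanned 0.23 log2 units and the genotypes intermingled. The difference was 0.016 (SE 0.082, 95% interval -0.17 to 0.20, limma adjusted p = 1.00; 0.905 with the replicate block), and it was -0.045 with arrays centred on their medians. Chrd was the dimmest of the 10, at the 37.6th percentile of all genes by mean signal, a range in which RMA compresses differences.

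Among the receptor genes, Bmpr1a encodes a type I BMP receptor, also called ALK3, and stood at 12.35, 12.50, 12.70 and 12.86 in Dom/Dom replicates 1 to 4. In wild-type replicates 1 to 4 it stood at 12.44, 12.46, 12.63 and 12.77. Replicates 3 and 4 were higher than replicates 1 and 2 in both genotypes, the reverse of Bmp6 and Tgfb3, and same-numbered arrays differed by at most 0.090 in size. The difference was 0.025 (SE 0.12, 95% interval -0.25 to 0.30, limma adjusted p = 1.00; 0.873 with the replicate block).

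Bmpr2 encodes the type II BMP receptor, and its 8 arrays spanned 0.26 log2 units, the narrowest range of the members after Chrd. Its level was 12.96, 12.94, 12.74 and 12.85 in Dom/Dom replicates 1 to 4, against 12.97, 12.92, 12.71 and 12.83 in wild-type replicates 1 to 4, so that each pair lay within 0.032 log2 units. The difference was 0.019 (SE 0.087, limma adjusted p = 1.00; 0.888 with the replicate block). Its 95% interval in fold terms ran from 0.886 to 1.16 without the block and from 0.941 to 1.09 with it. For both receptor genes the sign of the difference turned negative with arrays centred on their medians (-0.036 for Bmpr1a and -0.042 for Bmpr2), a step that moved the median of all genes to -0.062.

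**Figure D2:**
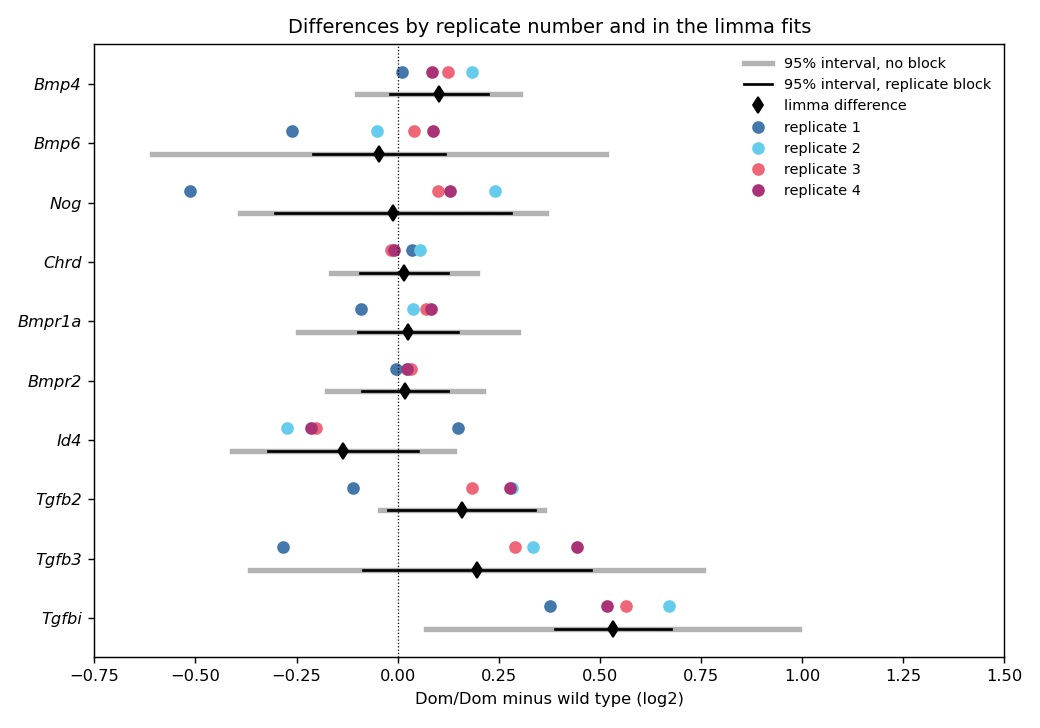
Dom/Dom minus wild type (log2) for each gene; coloured points are the 4 same-numbered pairs, the diamond is the limma difference, the grey bar its 95% interval without the block and the black bar that with the replicate block. The points of Tgfbi lie between 0.38 and 0.67, and for 8 of the 10 genes the pair 1 point is the lowest of its 4.

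Id4 belongs to the Id family of dominant-negative helix-loop-helix proteins, whose genes respond to BMP and which hold back neuronal differentiation. Its level was 10.84, 10.27, 10.67 and 10.58 in Dom/Dom replicates 1 to 4, against 10.69, 10.54, 10.87 and 10.79 in wild-type replicates 1 to 4. Dom/Dom was lower in pairs 2 to 4, with differences of -0.27, -0.20 and -0.21, and higher in pair 1, with a difference of 0.15. The difference was -0.14 (SE 0.12, 95% interval -0.41 to 0.14, limma adjusted p = 1.00; 0.507 with the replicate block).

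Tgfbi stood at 12.08, 11.82, 12.48 and 12.55 in Dom/Dom replicates 1 to 4, a mean of 12.23 ± 0.34 (SD, n = 4). In wild-type replicates 1 to 4 it stood at 11.71, 11.15, 11.91 and 12.03, a mean of 11.70 ± 0.39 (SD, n = 4). Replicate 2 was the lowest array of each genotype and replicate 4 the highest, and the groups overlapped through Dom/Dom replicate 2, which lay below wild-type replicates 3 and 4. Pair by pair, Dom/Dom was higher by 0.38, 0.67, 0.56 and 0.52 in replicates 1 to 4. The difference of 0.53 had a standard error of 0.21 without the block (95% interval 0.071 to 0.99, limma adjusted p = 0.619) and of 0.060 with it (95% interval 0.39 to 0.68, limma adjusted p = 0.0164). The blocked call was lost without replicate 3 (difference 0.52, limma adjusted p = 0.118) or replicate 4 (0.54, limma adjusted p = 0.146), fits that called 0.219% and 0.19% of all genes. It was kept without replicate 1 (0.58, limma adjusted p = 0.00422) or replicate 2 (0.49, limma adjusted p = 0.0337), fits that called 6.93% and 1.63% of all genes.

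Tgfbi is also made by mesenchymal cells, so markers of other cells that the culture could hold were read beside it. Over all 6855 genes, 5 were called higher and 28 lower without the block, and 31 higher and 72 lower with it. For somite and lateral mesoderm, 6 of 7 measured markers had positive differences, and their summed signal ran from 11.73 to 12.23 log2 units in Dom/Dom and from 11.41 to 11.92 in wild type. Without the block 0 of these 7 were called, and with it 1 was, the mesenchymal factor gene Prrx1. Prrx1 was also the brightest of the 7 and so weighs most in the sum, while Myf5 was near background. For smooth muscle, 4 of 4 measured markers had positive differences, 0 were called in either model, and the summed signal ran from 12.07 to 12.32 in Dom/Dom and from 11.76 to 12.12 in wild type. For Schwann cell precursors, 0 of 6 measured markers had positive differences, 5 were called lower (4 with the block), and the summed signal ran from 14.25 to 14.46 in Dom/Dom and from 14.64 to 15.10 in wild type. The brightest of the 6, Fabp7, was the marker not called, and ran from 13.87 to 14.19 in Dom/Dom and from 13.90 to 14.16 in wild type. For the neural crest, 4 of 11 measured markers had positive differences, 2 were called lower (4 with the block), and the summed signal ran from 15.10 to 15.27 in Dom/Dom and from 15.46 to 15.82 in wild type. The 2 were Sox10, the mutated gene itself, and Erbb3, and the block added Tfap2a and Cdh6. The lists overlap: Erbb3 is also counted for Schwann cell precursors and Twist1 for mesoderm. For melanocytes, 2 of 2 measured markers were called lower in either model, with summed signals of at most 9.69 in Dom/Dom and of 11.08 to 11.87 in wild type. For surface ectoderm and epithelium, 0 of 7 measured markers had positive differences, 0 were called without the block and 1 was called lower with it, Krt8. Their summed signal ran from 12.85 to 13.25 in Dom/Dom and from 13.15 to 13.68 in wild type, and Grhl2 was near background. For sensory and sympathetic neurons, 0 of 3 measured markers had positive differences, and 1 was called lower with the block only, Pou4f1, with summed signals from 11.11 to 11.47 in Dom/Dom and from 11.37 to 12.19 in wild type. The 1 endothelial marker measured, Pecam1, was not called and ran from 8.05 to 8.31 in Dom/Dom and from 8.01 to 8.36 in wild type, not far above background. Of 2 blood and macrophage markers 0 were called in either model, and their summed signal ran from 10.84 to 12.80 in Dom/Dom and from 11.73 to 13.54 in wild type. Ptprc was near background, at a mean of 7.03, so most of this sum is the globin gene Hba-x. Of 9 listed neural tube markers, 0 were measured. The part of these markers in the difference of Tgfbi was not tested.

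The stretch of 250 bases before an annotated transcript start was read from RefSeq (GRCm38.p6) for 8 members, all but Nog and Tgfb3. For 5 of them that start is the outer end of the gene's span, and for Tgfb2, Bmpr1a and Chrd it lies inside the span (for Tgfb2, 3708 bases from its outer end). It is printed for Tgfbi, which passed with the block, for Tgfb2, which passed when replicate 1 was left out, and for Id4, a BMP-responsive gene that did not pass. They are written 5′ to 3′ on the strand of the gene, with capitals marking matches on either strand to the SMAD box CAGACA, the GC-rich SMAD element GGCGCC, the SOX core motifs ACAAAG and ACAATG, and the TATA box TATAAA.
Tgfbi (chr13:56609336-56609585, plus strand): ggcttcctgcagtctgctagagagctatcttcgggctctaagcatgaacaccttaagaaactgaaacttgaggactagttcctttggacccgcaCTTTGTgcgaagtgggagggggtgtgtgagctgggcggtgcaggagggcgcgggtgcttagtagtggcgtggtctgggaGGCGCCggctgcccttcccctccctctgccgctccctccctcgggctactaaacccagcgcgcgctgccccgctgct
Tgfb2 (chr1:186705990-186706239, minus strand): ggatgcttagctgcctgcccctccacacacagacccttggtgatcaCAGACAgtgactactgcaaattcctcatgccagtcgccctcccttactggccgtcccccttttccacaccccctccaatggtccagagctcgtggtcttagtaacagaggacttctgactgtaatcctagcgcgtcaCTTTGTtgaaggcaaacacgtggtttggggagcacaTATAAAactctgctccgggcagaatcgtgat
Id4 (chr13:48260866-48261115, plus strand): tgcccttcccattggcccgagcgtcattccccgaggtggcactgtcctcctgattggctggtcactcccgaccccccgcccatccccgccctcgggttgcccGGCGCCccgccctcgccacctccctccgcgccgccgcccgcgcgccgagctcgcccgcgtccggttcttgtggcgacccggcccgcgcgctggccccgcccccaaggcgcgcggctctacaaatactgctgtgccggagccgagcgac

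In Tgfbi the capitals are, from the left, a SOX core on the opposite strand that begins 156 bases before the transcript start and a GC-rich SMAD element that begins 77 bases before it. In Tgfb2 they are a SMAD box at 204, a SOX core on the opposite strand at 67 and a TATA box at 31 bases before the internal transcript start, and in Id4 a GC-rich SMAD element at 148. The GC-rich element was found in 5 of the 8 members (Chrd, Bmpr1a, Bmpr2, Id4 and Tgfbi) and in 9.59% of all 32851 promoter windows. Most members have GC-rich promoters: 7 of the 8 windows held at least 60% G and C, and among all windows of that composition 26.1% held the element. The SMAD box was found in 1 of 8 members, in 17.1% of all windows and in 10.7% of the GC-rich windows. The SOX core ACAAAG was found in 2 of 8 members, 16.5% of all windows and 7.42% of the GC-rich ones, and ACAATG in 0 of 8, 10.7% and 3.62%. The TATA box was found in 1 of 8 members, 12.4% of all windows and 2.58% of the GC-rich ones. A match describes the letters and does not show that a factor binds there.

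The plot of deviations by array shows how the members varied over all 8 arrays, the difference between genotypes included. Tgfbi had the widest range over the 8 arrays (1.40 log2 units), followed by Tgfb3 (1.18) and Bmp6 (0.95), where the median gene ranged over 0.42. Within genotypes the order differed. Tgfb3 ranged over 0.89 in Dom/Dom and 1.04 in wild type, Bmp6 over 0.81 and 0.95, and Tgfbi over 0.73 and 0.88. A range above 1 log2 unit was seen in 2 of the 10 members and in 3.997% of all genes. For all 10 members the standard error was smaller with the replicate block, by factors from 1.20 for Tgfb2 to 3.70 for Bmp6. The pair 1 difference was the lowest of the 4 for 8 of the 10 members, where it was the lowest for 35.1% of all genes.

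**Figure D3:**
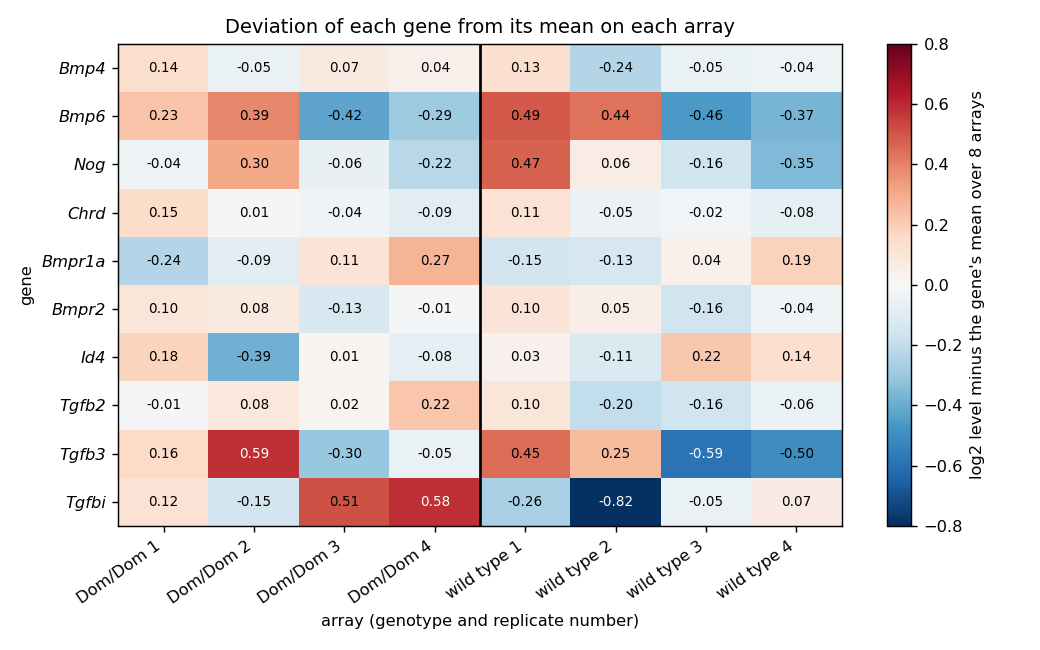
Log2 level of each gene on each array minus the mean of that gene over all 8 arrays, with Dom/Dom arrays left of the black line and wild-type arrays right of it; red is above and blue below the gene's mean. Bmp6 and Tgfb3 are above their means in replicates 1 and 2 and below them in replicates 3 and 4 of both genotypes, and Tgfbi is lowest in wild-type replicate 2 at -0.82.

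The genes whose level most resembled that of a member over the 8 arrays were found by Pearson's r, used as a measure of likeness with no test, since the arrays differed by replicate number as well as by genotype. For Tgfbi these were Flrt2, a transmembrane protein of the FLRT family (r = 0.996), and Hapln1, which links hyaluronan to proteoglycans (r = 0.987). For Tgfb3 they were Spcs1 (r = 0.985) and Cluh (r = 0.983), for Bmp6 Tecpr2 (r = 0.991) and Spata13 (r = 0.988), and for Bmpr1a Ube2w (r = 0.995) and Ipmk (r = 0.989). Bmpr2 was closest to Kansl1 (r = 0.987) and Ilkap (r = 0.971), Nog to Cobl (r = 0.971) and Tysnd1 (r = 0.969), and Chrd to Uts2r (r = 0.995) and Il22ra2 (r = 0.970). The lowest values were those of Bmp4 with Npas2 (r = 0.959) and Mia2 (r = 0.952), Id4 with Pnpla3 (r = 0.956) and Ywhaz (r = 0.953), and Tgfb2 with Tnfaip3 (r = 0.958) and Cpa6 (r = 0.939). Over all 20 such genes r ran from 0.939 to 0.996, and 0 of them were pathway members. Some of these genes lay near or below the background level of 7.93. Npas2 ran from 7.21 to 7.78 over the 8 arrays, Mia2 from 6.68 to 7.06 and Cpa6 from 6.85 to 7.23. Uts2r ran from 7.70 to 7.96 and Il22ra2 from 6.36 to 6.69. The genes named for Bmp4 and for Chrd were all of this kind, so their r is no sign of shared expression.

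The wider pathway was read from 8 role lists of 131 genes, of which 42 were among the genes tested, the 10 members included. Without the block 1 of the 42 was called, the antagonist gene Sostdc1, which rose, where 0.481% of all genes were called. With the block 3 were called, where 1.5% of all genes were. Of these 3, Sostdc1 and Tgfbi rose and Tbx2 fell. The same shares of all genes apply beside the counts of each role list. The median difference over the 42 genes was 0.024, with 26 above 0 and 16 below 0, against -0.00094 for all genes, 3399 of which were above 0 and 3456 below.

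Sostdc1, an extracellular antagonist of BMP and Wnt signalling, stood at 10.11, 10.35, 10.45 and 10.61 in Dom/Dom replicates 1 to 4, against 9.75, 9.55, 9.35 and 9.40 in wild-type replicates 1 to 4. Every Dom/Dom array was above every wild-type array. The pairs differed by 0.36, 0.79, 1.10 and 1.21 in replicates 1 to 4, so the gap was smallest in pair 1. The difference was 0.86 (SE 0.12), a 1.82-fold rise (limma adjusted p = 0.0143; 0.0369 with the replicate block). Leaving out any array of replicate 3 or 4 took its adjusted p to between 0.0573 and 0.0689, and an adjustment over all probe sets took it to 0.127. The blocked call was lost without replicate 2 (limma adjusted p = 0.0856), 3 (0.204) or 4 (0.221). Of the other 7 measured extracellular modulators, among them Nog, Chrd, Fstl1 and the procollagen and chordin protease gene Bmp1, 0 were called, and the list's median difference was 0.021.

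Of 5 measured receptor genes, 0 were called in either model. The largest difference was that of Acvrl1, which encodes ALK1, the type I receptor for BMP9 and BMP10 on endothelial cells. It stood at 9.05, 8.91, 8.81 and 8.78 in Dom/Dom replicates 1 to 4, against 9.59, 9.01, 9.59 and 9.51 in wild-type replicates 1 to 4. Dom/Dom was lower in each pair, with differences of -0.54, -0.095, -0.78 and -0.72, and the groups overlapped because wild-type replicate 2 lay below Dom/Dom replicate 1. The difference of -0.53 (SE 0.13) did not pass (limma adjusted p = 0.165; 0.0921 with the replicate block), though it did without wild-type replicate 2 (-0.67, limma adjusted p = 0.0142) and with array weights (-0.65, limma adjusted p = 0.0100). The endothelial marker Pecam1, the only marker of that list measured, differed by -0.031 (limma adjusted p = 1.00). Acvr1b, which encodes the activin type I receptor ALK4, differed by -0.083 (SE 0.097).

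Of 7 measured BMP and GDF ligand genes, 0 were called in either model, with differences from -0.15 for Gdf11 (SE 0.19), a ligand of axial patterning, to 0.15 for Gdf9 (SE 0.13), an oocyte factor whose mean level of 7.97 was close to the background level of 7.93. Of 4 measured genes of TGF-beta storage and activation, 0 were called in either model. Dcn, which encodes the TGF-beta-binding proteoglycan decorin, differed by 0.44 (SE 0.31, limma adjusted p = 1.00) and varied widely within each genotype, and Itgb8, an integrin subunit that activates latent TGF-beta, differed by 0.17 (SE 0.14). Of 3 measured Smads and regulators, 0 were called in either model: Smurf2, a ubiquitin ligase of the pathway, differed by 0.072 (SE 0.088) and the phosphatase gene Ppm1a by 0.032 (SE 0.10), and the sign of Ppm1a turned with arrays centred on their medians (-0.030).

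Of 5 measured BMP-responsive genes, 0 were called without the block and 1 fell with it, the T-box gene Tbx2, which BMP is known to induce in the heart and limb. Tbx2 stood at 9.45, 9.58, 9.91 and 9.89 in Dom/Dom replicates 1 to 4, against 10.05, 9.88, 10.57 and 10.36 in wild-type replicates 1 to 4. Dom/Dom was lower in every pair, with differences of -0.60, -0.30, -0.66 and -0.47, while the groups overlapped narrowly through wild-type replicate 2. The difference was -0.51, with a standard error of 0.16 without the block (limma adjusted p = 0.377) and 0.069 with it (0.0269), and the blocked call was lost without replicate 3 (0.159) or replicate 4 (0.189). The list's median difference was -0.14, with 1 gene above 0 and 4 below. Id2 differed by -0.084, Hand1 by -0.15 and Msx2 by 0.098.

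Of 8 measured TGF-beta-responsive genes, 0 were called without the block and 1 rose with it, Tgfbi. The list's median difference was 0.16, with 7 of 8 genes above 0. For all genes the median was -0.00094, with 3399 of 6855 above 0. The fibronectin gene Fn1 differed by 0.090 (limma adjusted p = 1.00; 0.468 with the replicate block), the collagen gene Col1a1 by 0.26 (0.966; 0.150 with the block) and Col3a1 by 0.17 (1.00; 0.183 with the block). Snai2, a crest transcription factor gene, differed by -0.19 (1.00; 0.472 with the block). Klf10 had the largest difference of the list after Tgfbi, at 0.29 (limma adjusted p = 0.801; 0.264 with the block). Ccn2 differed by 0.14 (0.412 with the block) and Tsc22d1 by 0.059 (0.661 with the block).

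**Figure D4:**
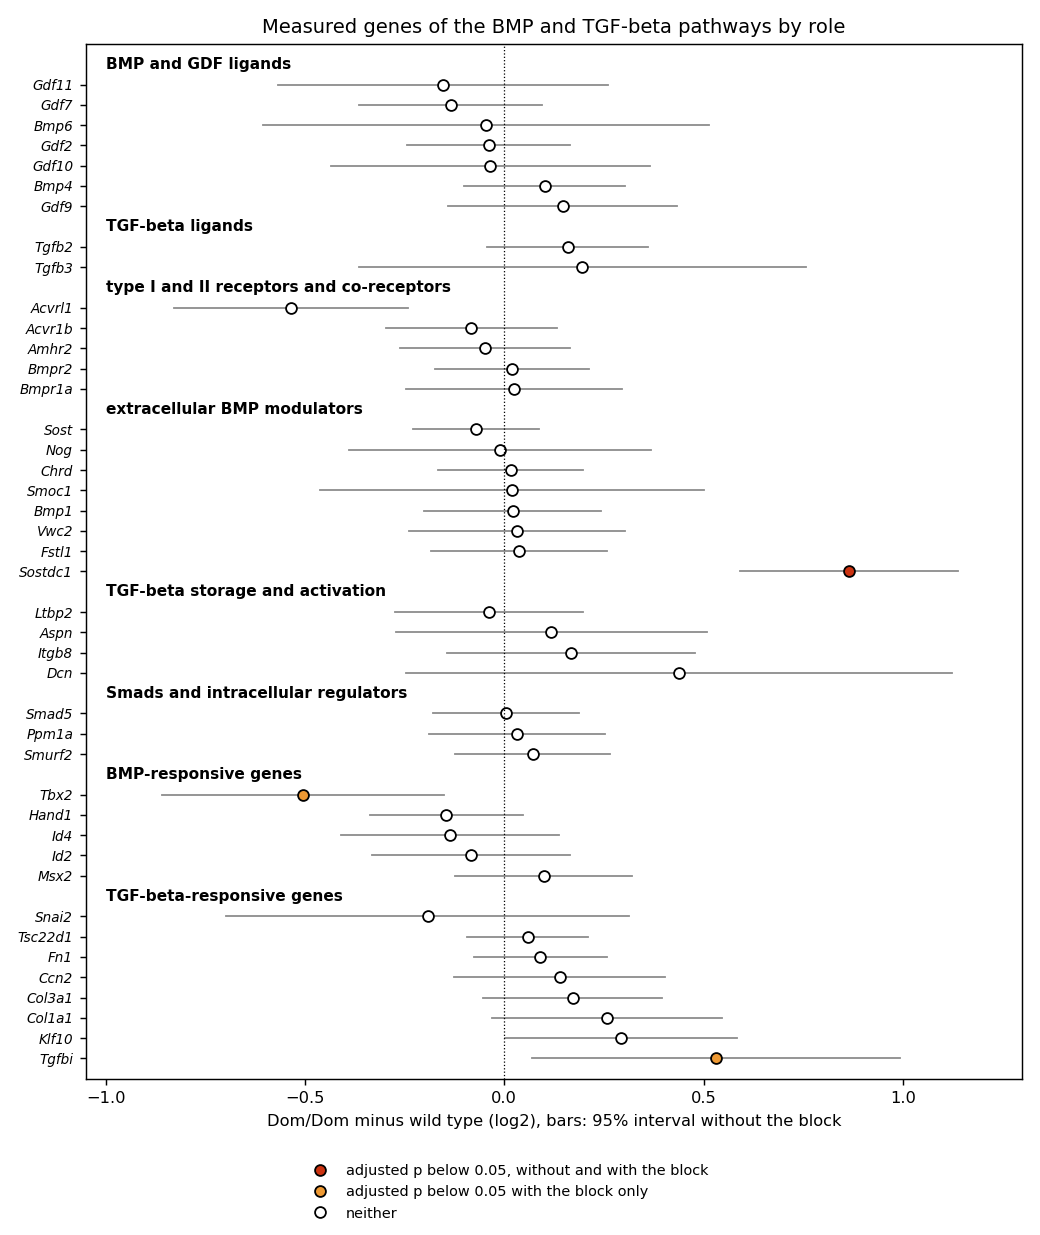
Dom/Dom minus wild type (log2) for the 42 measured pathway genes grouped by role, with bars for the 95% interval without the block; red marks a gene called without and with the replicate block, orange a gene called with the block only, and white a gene called in neither. Sostdc1 stands alone on the right at 0.86, and Tgfbi and Tbx2 lie at 0.53 and -0.51.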

How the data were processed

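The authors deposited 1 log2 expression value per probe set for each of 8 Affymetrix Mouse Gene 1.0 ST arrays. RMA and Partek are named per the submitters' processing notes, with versions not given in the sources used here. This method compresses differences of dim probe sets. No detection calls came with the values, and precision is limited by how many arrays there were. The table held 16381 probe sets, part of the array, of which 7416 carried 1 gene symbol in the platform annotation (509 several, 8456 none). The brightest probe set stood for a gene, which left 6855 genes, 6829 of them matched by identifier to RefSeq (GRCm38.p6).

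The test was that of limma (version 3.58.1, R version 4.3.3), two-sided, with lmFit and eBayes on genotype alone and Benjamini-Hochberg adjustment over all genes, after the steps had been tested on simulated data. The genotypes share replicate numbers. The deviations of same-numbered arrays from their genotype's mean had correlations of 0.47 (replicate 1), 0.58 (2), 0.61 (3) and 0.67 (4), all over 0.1. Same-numbered arrays were therefore shown as pairs and blocked in an alternative model, while the main fit did not use the pairing. No label states this pairing, and differently numbered arrays also correlated at up to 0.38. A model with replicate number as a block beside genotype was an alternative. The members and gene lists were chosen with earlier results of these data known. Named genes were Sox10, the members, in each role list the genes past the threshold in either model or else the 2 with the largest difference, and for each member the 2 genes with the highest Pearson's r. Other genes in the text were picked with their values in view. Summed marker signal is the log2 of the sum of linear signals, so the brightest markers of a list weigh most in it. Promoter windows are those of RefSeq, without the bases after the start. Alternatives were other probe set rules, a filter on dim genes, scaling, normalisation, a trended robust prior, array weights and leaving out arrays.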

Additional observations from a re-analysis of the deposited data

Results flagged for a closer look

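For the 10 members, Sox10 and the 10 other pathway genes chosen by the rule on role lists, each genotype's 4 values were examined for a single value far from the rest. Of 42 such sets, 1 held one, where chance gives about 1 in 20. Acvrl1 was low in wild-type replicate 2, at 9.01, against 9.51 to 9.59 in the other 3 wild-type arrays. Of the 10 members, 0 held such a value.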

How the results depend on the processing

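Of the members, Bmp4, Tgfb2, Tgfb3, Tgfbi and Id4 kept their direction in all 16 alternatives listed in advance, with Tgfbi between 0.35 and 0.67. The count of called members was 0 in 15 of these and 1 with the replicate block. The blocked fits without a replicate, chosen after seeing the data, called 0 to 3 members, 0 to 6 pathway genes and 13 to 475 genes (112 without replicate 2). Without the block the count of pathway genes was 1. It was 0 over all probe sets, 2 with array weights and 3 with the replicate block, and 0 to 2 when leaving out arrays, with 0 without a replicate 3 or 4 array of either genotype and 2 without wild-type replicate 2. The count of all genes was 33, against 4 over all probe sets, 190 with array weights, 103 with the replicate block and 10 to 51 when leaving out arrays. Beside Tgfbi and Tbx2, the block changed no call among the members, Sox10 and the 10 other pathway genes chosen by the rule on role lists. The genes named for their likeness to a member were not refitted under each alternative. Some differences near 0 reversed without a call. With array weights Bmp6 was 0.059 and Nog 0.098. With arrays centred on their medians Chrd was -0.045, Bmpr1a -0.036, Bmpr2 -0.042 and Ppm1a -0.030, and after quantile normalisation again Chrd was -0.047. Leaving out arrays, Bmp6 ran from -0.21 to 0.11, Nog from -0.13 to 0.14, Chrd from -0.031 to 0.056, Bmpr1a from -0.060 to 0.11, Bmpr2 from -0.031 to 0.064 and Ppm1a from -0.017 to 0.10. Without replicate 1 the blocked values of Bmp6 and Nog were 0.026 and 0.16. The cause of these changes was not tested. With 4 arrays a genotype and no detection calls, whether a gene's signal was above background is known only from the olfactory receptor level.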
